A study of Mus musculus with 56 samples.

Results

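The comparison described here set the MN translatome of symptomatic hTDP-43 A315T mice against that of hTDP-43 WT mice at 14 weeks of age. It used 8 of the 56 RNA-seq libraries of the series, which are 4 hTDP-43 A315T and 4 hTDP-43 WT MN-TRAP libraries chosen by their titles. Another hTDP-43 WT library, replicate 5, was left out because reads on the pseudogene Lamr1-ps1 stood at the hTDP-43 A315T level. All mice were females on C57BL/6J and carried the Chat bacTRAP transgene, an EGFP-tagged ribosomal protein L10a expressed under Chat regulatory sequences. The hTDP-43 A315T line expressed human TDP-43 with an ALS-linked mutation and the hTDP-43 WT line expressed the unmutated human protein, in both lines under the prion promoter, which is active well beyond motor neurons. The hTDP-43 A315T mice had difficulty extending the hind limbs at this age, and the hTDP-43 WT mice did not show motor symptoms. The labels give the tissue as cervical spinal cord and the study's methods speak of spinal cord, so the segments are not settled. Part of each lysate was kept as whole-cord input, and which MN-TRAP and cord libraries share an animal is not given.

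In translating ribosome affinity purification (TRAP), antibodies against EGFP pull down tagged ribosomes with the mRNA they are translating, so that the RNA of one cell type is enriched from a whole-tissue lysate. RNA of other cells that sticks to the beads is carried along to some degree, and markers of glia, other neurons and muscle were therefore followed beside those of motor neurons. TDP-43 is a nuclear RNA-binding protein that controls splicing and stability of many neuronal mRNAs and forms cytoplasmic aggregates in most ALS. Motor neurons of the cord are cholinergic, express Chat and Slc18a3 for the synthesis and vesicular loading of acetylcholine, and depend on the homeobox factors Mnx1, Isl1, Lhx3 and Lhx4 for their identity.

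The library that was left out differed from hTDP-43 A315T replicate 3 by little more than sampling noise. A chi-square comparison of the counts of these 2 libraries gave 1.3 per gene over 18846 genes, where 1 would be sampling noise alone. The next closest pair of the 9 libraries, hTDP-43 A315T replicates 2 and 3, gave 12.2, and pairs within the 4 kept hTDP-43 WT libraries gave 30.3 to 203. The library labelled hTDP-43 WT replicate 5 was the most deeply sequenced of the 9, with 256 M counts, against 12.3 M in hTDP-43 A315T replicate 3. Whether it was mislabelled or repeats that library was not tested, so results are also given with it in the fit under its label. Lamr1-ps1 (chr2:131904086-131904959, plus strand, GRCm38) had 0.969, 0.675, 2.93 and 1.6 raw CPM (counts scaled to a common library total, without TMM) in hTDP-43 A315T replicates 1 to 4 and 0 in each of the 4 kept hTDP-43 WT libraries, against 1.69 in replicate 5 and a threshold of 0.4. Gm13886 (chr2:104820179-104821361, plus strand), another processed pseudogene, had 5.52, 8.36, 10.2 and 8.82 CPM in hTDP-43 A315T and 1.78, 0.892, 0.933 and 1.5 CPM in hTDP-43 WT, with 11.3 CPM in replicate 5. Both are given as a description only. Because replicate 5 was left out by a measure that separates the lines, p-values without it are conditional on that choice. The control MN-TRAP libraries of 9 weeks enter the comparison at 14 weeks through the gene filter, the scaling and the estimate of spread. Of these, hTDP-43 WT replicate 3 (1.11 CPM) and Chat bacTRAP replicate 4 (1.34 CPM) also had Lamr1-ps1 reads.

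The 8 libraries held 12.3 to 43.3 M counts in hTDP-43 A315T and 14.8 to 22.9 M in hTDP-43 WT, with 17739 to 18577 and 16566 to 19305 genes detected. Mitochondrially encoded genes took 0.0977 to 0.151% of the counts in hTDP-43 A315T and 0.484 to 5.58% in hTDP-43 WT, the highest share being in hTDP-43 WT replicate 2. TMM scaling factors were 0.790 to 0.969 in hTDP-43 A315T and 0.652 to 0.935 in hTDP-43 WT, the lowest being replicate 3. Unless another unit is named, values of single genes below are CPM scaled by TMM, given for replicates 1 to 4 in order. Nothing in the labels says that replicates are separate animals, so p-values measure the spread between samples. In the main fit that spread was estimated over all 55 libraries, whole cord included, and not over these 8 alone. For Mog the SE of the log2 change was 0.38 in that fit and 0.558 in MN-TRAP libraries alone (edgeR adjusted p = 0.00134 and 0.14). Lists and genes were chosen with earlier results of these data known.

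Genes lower in hTDP-43 A315T outnumbered genes that were higher. With edgeR's quasi-likelihood test in 1 fit to 55 libraries and 12 groups, 1463 of 18791 genes (7.79%) were lower and 320 (1.7%) were higher by at least 2-fold at a Benjamini-Hochberg adjusted p below 0.05, 9.49% in either direction. With replicate 5 in the fit the counts were 879 lower (4.67%) and 130 higher (0.69%), 5.36% in either direction, and 958 genes were called in both fits in the same direction. The median log2 change of all genes was -0.07. Of the called genes, 606 that were lower and 120 that were higher had no overlap between the 2 groups of 4, and over all genes tested 6.31% had all 4 hTDP-43 A315T libraries below, and 4.28% above, all 4 hTDP-43 WT libraries. The count changed with the libraries in the fit, as did the genes that passed the filter. The 8 libraries fitted alone gave 95 lower (0.652%) and 5 higher (0.0343%) among 14562 genes, and the MN-TRAP libraries fitted alone without replicate 5 gave 0 calls by edgeR, with 2510 genes at an unadjusted p under 0.05. Without hTDP-43 WT replicates 2 and 3 together, an alternative chosen after seeing the data, 219 genes were lower and 15 higher.

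**Figure D1:**
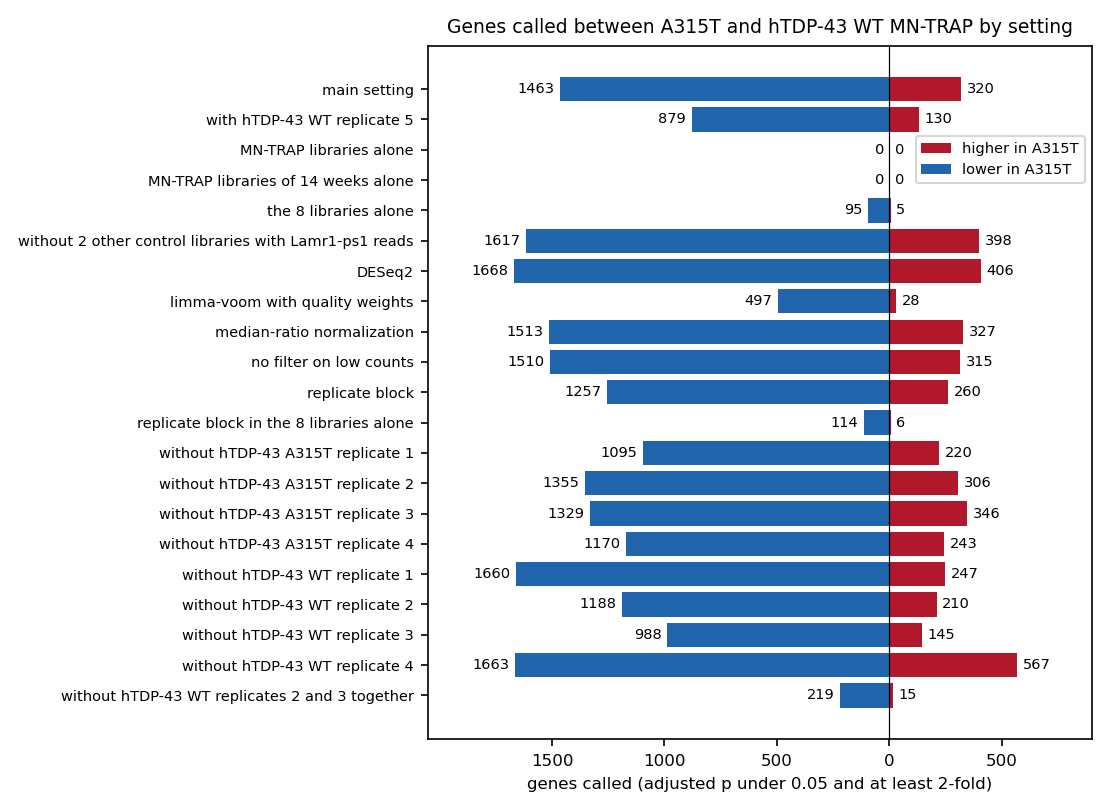
Number of genes called higher (red, right) and lower (blue, left) in hTDP-43 A315T than in hTDP-43 WT under each setting of the analysis. The main setting gave 320 higher and 1463 lower, the 8 libraries alone 5 and 95, and fits to MN-TRAP libraries alone none.

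Oligodendrocyte mRNAs were the group with the most members lower in the hTDP-43 A315T translatome. Of 28 oligodendrocyte genes tested, 25 were called lower and none higher, against a background of 7.79% of all genes lower, and their median log2 change was -1.88. All 4 hTDP-43 A315T libraries lay below all 4 hTDP-43 WT libraries for 26 of them. Their summed level was 3880, 3430, 3320 and 3010 CPM in hTDP-43 A315T and 8790, 28600, 18100 and 11300 CPM in hTDP-43 WT, and it was 3550 CPM in replicate 5. In Chat bacTRAP mice, which carry no human TDP-43, it was 4400 to 25100 CPM in MN-TRAP at this age. The hTDP-43 A315T libraries were close to each other, and hTDP-43 WT replicates 2 and 3 were the highest. In whole spinal cord at 14 weeks none of the 28 was called and their median log2 change was -0.08. With replicate 5 in the fit 24 were called lower, in the 8 libraries alone 19, and without hTDP-43 WT replicates 2 and 3 together 5, with a median log2 change of -1.32. In MN-TRAP libraries alone 26 were lower at an unadjusted p under 0.05 and none passed adjustment. In Chat bacTRAP mice of 14 weeks, 26 of the 28 were called lower in MN-TRAP than in whole cord. Whether the change in hTDP-43 A315T reflects less carried-over RNA, fewer cells of the type or less RNA per cell was not tested.

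Mbp, which encodes myelin basic protein, had 490, 532, 446 and 451 CPM in hTDP-43 A315T, against 1010, 2310, 1790 and 1340 CPM in hTDP-43 WT. The groups did not overlap, and replicate 5 had 473 CPM. The log2 change was -1.75 ± 0.40 (SE, n = 4 each, edgeR adjusted p = 0.00244). Car2, a carbonic anhydrase, had 111, 122, 120 and 105 CPM in hTDP-43 A315T and 280, 849, 800 and 391 CPM in hTDP-43 WT, a log2 change of -2.34 (edgeR adjusted p = 4.77e-05). Mog, a myelin surface glycoprotein, had 43.3, 41.0, 44.4 and 40.0 CPM in hTDP-43 A315T and 83.9, 203, 165 and 127 CPM in hTDP-43 WT, a log2 change of -1.78 (edgeR adjusted p = 0.00134). These 3 calls held without each of the 8 libraries in turn. Without hTDP-43 WT replicates 2 and 3 together the adjusted p was 0.151 for Mbp, 0.028 for Car2 and 0.119 for Mog.

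Cnp, a myelin phosphodiesterase, had 192, 188, 169 and 187 CPM in hTDP-43 A315T, against 387, 548, 911 and 438 CPM in hTDP-43 WT. Its log2 change was -1.63 (edgeR adjusted p = 0.000714) in the MN translatome and 0.09 in whole cord, and the difference between the fractions was -1.73 (edgeR adjusted p = 0.0364, 0.0582 with a replicate block and 0.16 with replicate 5 in the fit). Plekhb1, a pleckstrin homology domain protein, had 87.6, 105, 91.8 and 79.5 CPM in hTDP-43 A315T and 218, 535, 492 and 299 CPM in hTDP-43 WT, a log2 change of -2.09 (edgeR adjusted p = 0.000344). By quantitative PCR in another MN-TRAP cohort, the study found Plekhb1 lower than in Chat bacTRAP mice. Its immunostaining found less PLEKHB1 protein in motor neurons than in both controls. Ermn, a cytoskeletal protein of myelinating oligodendrocytes, had 36.3, 44.8, 55.4 and 43.9 CPM in hTDP-43 A315T and 135, 439, 237 and 212 CPM in hTDP-43 WT, a log2 change of -2.50 (edgeR adjusted p = 0.0003). Olig2, a transcription factor of the lineage, had 5.63, 4.83, 5.31 and 5.74 CPM in hTDP-43 A315T and 14.2, 44.1, 12.1 and 19.0 CPM in hTDP-43 WT, a log2 change of -2.06 (edgeR adjusted p = 0.000366). None of these 4 genes overlapped between the groups, and all 4 calls held without each library in turn. Without hTDP-43 WT replicates 2 and 3 together the edgeR adjusted p was 0.104 for Cnp, 0.0706 for Plekhb1, 0.0401 for Ermn and 0.0396 for Olig2. The members that did not pass were Nkx6-2, Qdpr and Myrf.

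**Figure D2:**
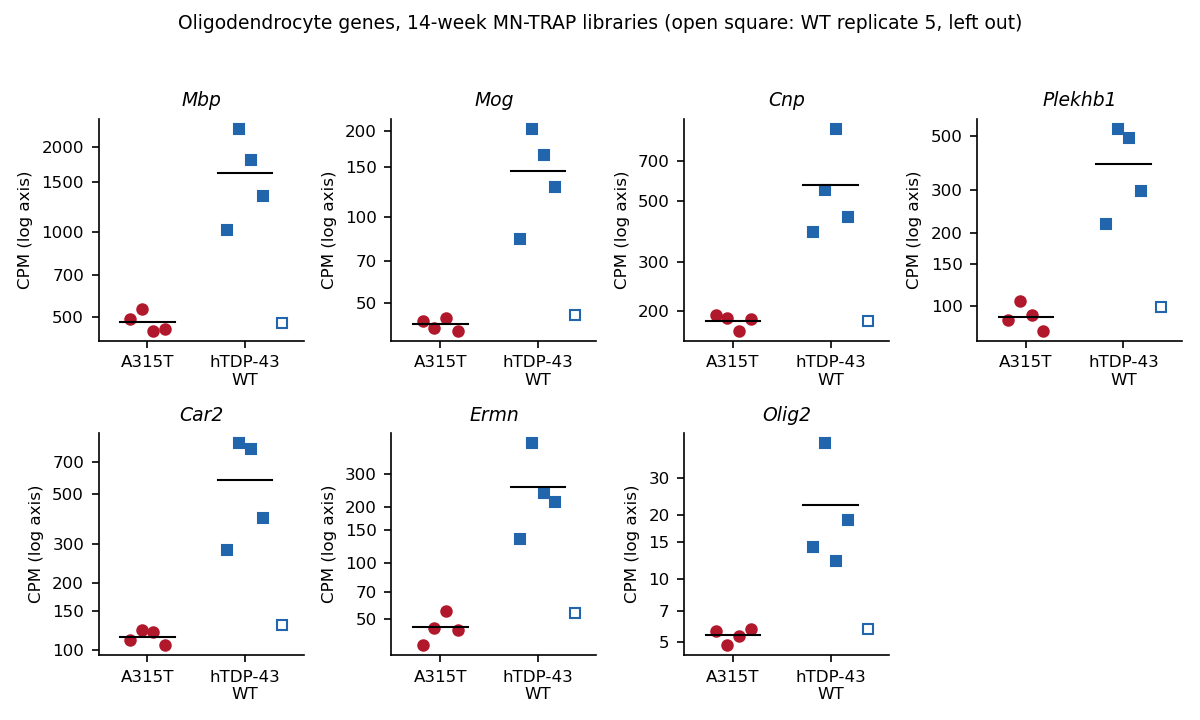
CPM (log axis) of 7 oligodendrocyte genes in the 4 hTDP-43 A315T libraries (red circles) and the 4 hTDP-43 WT libraries (blue squares), with lines at the group means and an open square for hTDP-43 WT replicate 5. For each gene the 2 groups do not overlap, and replicate 5 lies near hTDP-43 A315T.

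The 250 bases before the start of the plotted oligodendrocyte genes are shown because the list's members fell together. Entries of the RefSeq promoter table (GRCm38.p6) were found for Cnp, Ermn, Mog, Olig2 and Plekhb1, the last with 2 starts, at Cnp chr11:100574689-100574938 (plus strand), Ermn chr2:58052865-58053114 (minus strand), Mog chr17:37023399-37023648 (minus strand), Olig2 chr16:91225300-91225549 (plus strand), Plekhb1 chr7:100656966-100657215 (minus strand), Plekhb1 chr7:100662395-100662644 (minus strand). Capitals mark ACAAAG or its reverse complement CTTTGT, a core sequence bound by SOX factors, and each line runs 5′ to 3′ on the strand of the gene.
Cnp: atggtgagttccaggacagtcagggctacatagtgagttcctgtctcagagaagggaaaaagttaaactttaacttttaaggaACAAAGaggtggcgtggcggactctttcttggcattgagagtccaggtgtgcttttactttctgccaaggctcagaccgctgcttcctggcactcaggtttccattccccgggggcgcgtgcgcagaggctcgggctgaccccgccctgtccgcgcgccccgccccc
Ermn: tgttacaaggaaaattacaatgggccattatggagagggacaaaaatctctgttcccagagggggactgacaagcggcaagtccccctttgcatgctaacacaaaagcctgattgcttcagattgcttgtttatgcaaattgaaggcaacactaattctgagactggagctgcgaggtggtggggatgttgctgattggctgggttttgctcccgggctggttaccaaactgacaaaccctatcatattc
Mog: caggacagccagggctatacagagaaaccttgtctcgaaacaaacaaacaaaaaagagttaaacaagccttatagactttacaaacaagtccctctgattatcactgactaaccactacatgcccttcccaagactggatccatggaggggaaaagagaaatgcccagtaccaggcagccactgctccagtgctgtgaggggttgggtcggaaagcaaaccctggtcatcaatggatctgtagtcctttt
Olig2: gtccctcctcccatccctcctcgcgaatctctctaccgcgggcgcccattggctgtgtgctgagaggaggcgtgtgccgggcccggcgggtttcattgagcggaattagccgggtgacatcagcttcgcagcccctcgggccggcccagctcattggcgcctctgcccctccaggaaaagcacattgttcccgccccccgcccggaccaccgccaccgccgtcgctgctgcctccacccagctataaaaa
Plekhb1, downstream start: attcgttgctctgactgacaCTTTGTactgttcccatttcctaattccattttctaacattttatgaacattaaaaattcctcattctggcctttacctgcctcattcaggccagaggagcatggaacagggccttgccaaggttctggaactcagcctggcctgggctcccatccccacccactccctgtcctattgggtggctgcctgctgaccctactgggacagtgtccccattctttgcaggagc
Plekhb1, upstream start: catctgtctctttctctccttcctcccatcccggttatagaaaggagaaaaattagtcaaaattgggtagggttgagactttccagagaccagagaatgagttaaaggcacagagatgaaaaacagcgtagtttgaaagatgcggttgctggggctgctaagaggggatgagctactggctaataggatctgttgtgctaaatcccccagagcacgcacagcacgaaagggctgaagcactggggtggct

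The motif was 1 of 4 looked at in these windows, after the changes were known. It was found in 7 of the 17 oligodendrocyte genes with an entry (41.2%) and in 5015 of 27025 genes in all (18.6%). ACAAT (or ATTGT) was found in 4 of the 17 (23.5%, against 30.9% of all genes), CAGCTG in 1 (5.88%, against 14.7%) and CATATG in 1 (5.88%, against 3.98%). With several motifs tried, 17 genes and no test, these shares are a description of the letters only.

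Astrocyte mRNAs were lower as well. Of 24 astrocyte genes, 20 were called lower and none higher, with a median log2 change of -1.79, and 15 did not overlap between the groups. Their summed level ran from 2680 to 3100 CPM in hTDP-43 A315T and from 4040 to 7060 CPM in hTDP-43 WT, and their median log2 change in whole cord was -0.17. With replicate 5 in the fit 14 were lower, in the 8 libraries alone 7, and without hTDP-43 WT replicates 2 and 3 together 0, at a median of -0.98. Aqp4, the water channel of astrocyte endfeet, had 20.4, 73.7, 31.0 and 25.4 CPM in hTDP-43 A315T, against 78.9, 342, 168 and 128 CPM in hTDP-43 WT, a log2 change of -2.25 (edgeR adjusted p = 0.00538). Slc1a2, a glutamate transporter, had 39.1, 113, 56.5 and 61.9 CPM in hTDP-43 A315T and 126, 379, 350 and 210 CPM in hTDP-43 WT, a log2 change of -1.98 (edgeR adjusted p = 0.00416). Both genes were apart in all 8 libraries and their calls held without each of them. Gfap, the astrocyte intermediate filament, had 121, 317, 160 and 219 CPM in hTDP-43 A315T and 267, 495, 261 and 381 CPM in hTDP-43 WT, overlapping, with an adjusted p of 0.122 by edgeR. Aldh1l1 was called (log2 change -1.44, edgeR adjusted p = 0.0374) but not without hTDP-43 WT replicate 3, where its adjusted p was 0.346, and it also ended without hTDP-43 A315T replicate 1 (0.12), 3 (0.0669) or 4 (0.081) and with replicate 5 in the fit (0.0938).

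Other cells of the cord followed with fewer calls. Of 22 microglia genes 9 were lower, at a median log2 change of -1.05, where the median in whole cord was 0.40. The summed level of the microglia list was 72.1 to 93.1 CPM in hTDP-43 A315T and 88.9 to 319 CPM in hTDP-43 WT, so the groups overlapped. Siglech, a microglial lectin, had 0.876, 0.604, 1.04 and 0.783 CPM in hTDP-43 A315T and 6.77, 11.4, 1.56 and 4.57 CPM in hTDP-43 WT, a log2 change of -2.90 (edgeR adjusted p = 0.00314). Of 14 oligodendrocyte precursor genes 7 were lower, and of 14 Schwann cell genes 5. The Schwann cell list shares Mbp, called lower, and Sox10 with the oligodendrocyte list. No precursor gene had all hTDP-43 A315T libraries below all hTDP-43 WT libraries, and in the 8 libraries alone none was called. The summed precursor level was 255 to 325 CPM in hTDP-43 A315T and 255 to 451 CPM in hTDP-43 WT. Without hTDP-43 WT replicate 2 the microglia count was 4, the precursor count 3 and the Schwann cell count 2. Of 15 meningeal fibroblast genes 4 were lower, and of 43 ependymal and motile cilia genes 5, each count being 1 with replicate 5 in the fit. Lower calls were made for 1 of 20 endothelial, 1 of 13 pericyte and smooth muscle and 0 of 11 blood genes, beside 7.79% of all genes.

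Markers of other spinal neurons were lower in part. Of 20 inhibitory interneuron genes 7 were lower and 1, the neuropeptide gene Gal, was higher (edgeR adjusted p = 0.00591, and 0.069 with replicate 5 in the fit), and of 19 excitatory interneuron and dorsal horn genes 5 were lower, beside 7.79% of all genes. The excitatory and dorsal horn count was 3 without hTDP-43 WT replicate 2, 3 with replicate 5 in the fit and 0 in the 8 libraries alone. Gad1, which makes GABA, had 61.3, 51.2, 55.9 and 48.8 CPM in hTDP-43 A315T, against 120, 157, 109 and 103 CPM in hTDP-43 WT, a log2 change of -1.17 (edgeR adjusted p = 0.000316). Gata3, a factor of V2b interneurons, had 0.175, 0, 0.087 and 0.0522 CPM in hTDP-43 A315T and 1.58, 2.20, 1.56 and 0.613 CPM in hTDP-43 WT, a log2 change of -4.05 (edgeR adjusted p = 0.000738). Neither gene overlapped between the groups, and both calls held without each library in turn and without hTDP-43 WT replicates 2 and 3 together (adjusted p = 0.0294 for Gad1 and 0.035 for Gata3 by edgeR). Slc17a6, a vesicular glutamate transporter, had 67.7, 58.7, 60.5 and 59.6 CPM in hTDP-43 A315T and 128, 279, 102 and 138 CPM in hTDP-43 WT, a log2 change of -1.39 (edgeR adjusted p = 0.00192), which shrank to -0.99 without hTDP-43 WT replicate 2 and was then below 2-fold.

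**Figure D3:**
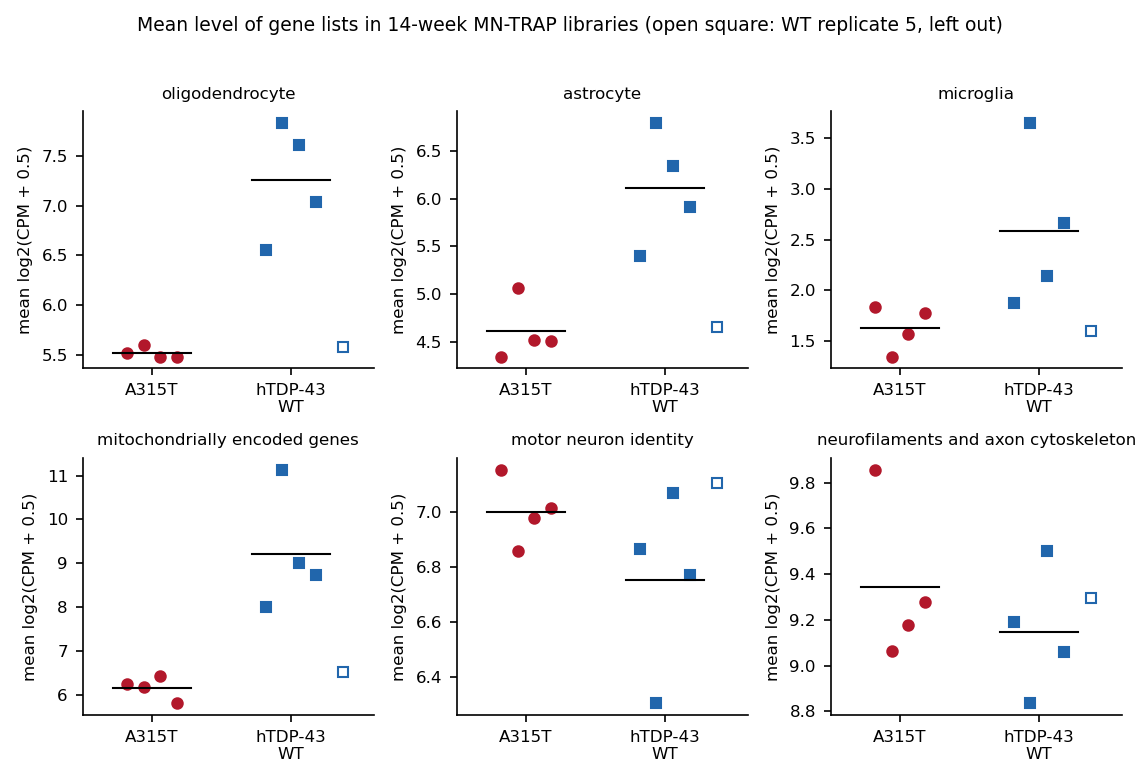
Mean log2(CPM + 0.5) over the members of 6 gene lists in the 4 hTDP-43 A315T libraries (red circles) and the 4 hTDP-43 WT libraries (blue squares), with lines at the group means and an open square for hTDP-43 WT replicate 5. The oligodendrocyte list lies between 5.48 and 5.60 in hTDP-43 A315T and between 6.55 and 7.83 in hTDP-43 WT, while motor neuron identity genes overlap.

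Genes that the pull-down depletes made up much of the lower set. In Chat bacTRAP mice of 14 weeks, which entered neither side of the comparison, 4152 of 18791 genes (22.1%) were lower and 1643 (8.74%) higher in MN-TRAP than in whole cord. Of the 1463 genes lower in hTDP-43 A315T, 731 (50%) belonged to the depleted genes and 33 (2.26%) to the enriched ones. Of the 95 lower in the 8 libraries alone, 81 (85.3%) were depleted. The 320 higher genes held 107 depleted (33.4%) and 25 enriched (7.81%). The share of carried-over RNA in each library, and its part in these changes, was not tested.

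**Figure D4:**
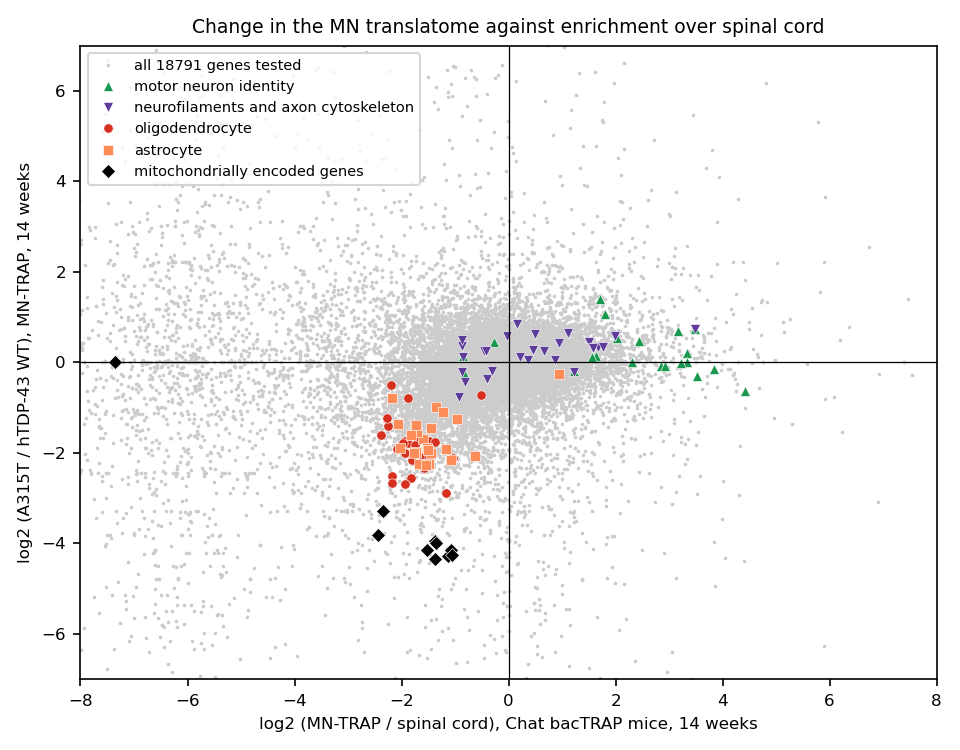
Log2 change in hTDP-43 A315T over hTDP-43 WT in the MN translatome (vertical) against log2 enrichment of MN-TRAP over spinal cord in Chat bacTRAP mice (horizontal), 1 point per gene, with 5 lists marked and 128 genes outside the axes. Oligodendrocyte genes and all but 1 astrocyte gene sit left of 0, all of them below 0 vertically, and motor neuron identity genes lie mostly to the right and near 0.

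Mitochondrially encoded RNA was much lower in hTDP-43 A315T. Of 10 such genes tested 9 were lower, with a median log2 change of -4.07, and their summed level was 1050 to 1600 CPM in hTDP-43 A315T and 5300 to 61000 CPM in hTDP-43 WT. mt-Nd2, a subunit of complex I, had 148, 127, 151 and 60.2 CPM in hTDP-43 A315T, against 625, 7080, 1230 and 894 CPM in hTDP-43 WT, a log2 change of -4.34 (edgeR adjusted p = 0.00364). hTDP-43 WT replicate 2 was the highest by far, and without it the log2 change of mt-Nd2 was -2.91 (edgeR adjusted p = 0.038) and the calls of mt-Nd6 and mt-Rnr1 ended (for mt-Rnr1 the adjusted p was 0.066). Without replicates 2 and 3 together none of the 10 was called. The list's median log2 change was -1.22 in whole cord, with none called. Its summed level in cord still did not overlap, at 9790 to 15200 CPM in hTDP-43 A315T and 19700 to 50100 CPM in hTDP-43 WT. In MN-TRAP of age-matched Chat bacTRAP mice the summed level was 4840 to 62300 CPM. At 9 weeks the list's median log2 change in MN-TRAP was -3.36, with 9 called. Nuclear oxidative phosphorylation genes were not called (0 of 52 by edgeR, with 1 lower at an unadjusted p under 0.05 in MN-TRAP libraries alone).

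Few motor neuron genes passed the test. Of 21 motor neuron identity genes none was lower and 2, Tns1 and Lhx4, were higher, against a background of 1.7% of all genes higher, with a median log2 change of 0.12. All 4 hTDP-43 A315T libraries lay above all 4 hTDP-43 WT libraries for 4 of the 21 and below for 0, against 4.28% and 6.31% of all genes. With replicate 5 in the fit 1 of the 21 was called higher. Of the 21, 18 were enriched in MN-TRAP over cord in Chat bacTRAP mice. Chat had 72.7, 174, 160 and 190 CPM in hTDP-43 A315T and 84.3, 49.8, 201 and 97.6 CPM in hTDP-43 WT, overlapping (log2 change 0.47 ± 0.40, SE, edgeR adjusted p = 0.458). Slc18a3 had 1440, 1290, 1160 and 1430 CPM in hTDP-43 A315T, against 1630, 607, 1290 and 1110 CPM in hTDP-43 WT (log2 change 0.20 ± 0.34, SE, edgeR adjusted p = 0.734). The strain name of the Chat bacTRAP line also lists Slc18a3, so these counts need not measure the endogenous gene alone. Mnx1 had 111, 61.1, 65.7 and 74.1 CPM in hTDP-43 A315T and 52.4, 40.7, 53.7 and 47.9 CPM in hTDP-43 WT, with no overlap, and its log2 change of 0.68 (edgeR adjusted p = 0.0376) was below 2-fold. Of 27 neurofilament and axon cytoskeleton genes none was called, at a median of 0.27, and none of 21 alpha and gamma motor neuron markers, at a median of -0.02. A p that missed the threshold does not show that the lines had equal levels.

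Tns1 (chr1:73910231-74124449, minus strand), the focal adhesion protein tensin 1, had 558, 287, 311 and 346 CPM in hTDP-43 A315T, against 159, 108, 125 and 181 CPM in hTDP-43 WT. The groups did not overlap and replicate 5 had 332 CPM. Its log2 change was 1.39 ± 0.25 (SE, edgeR adjusted p = 0.000274), and 0.15 in whole cord, with a difference between fractions of 1.24 (edgeR adjusted p = 0.0488, 0.0801 with a replicate block and 0.354 with replicate 5 in the fit). Parvb, another focal adhesion protein, had 41.6, 29.7, 28.9 and 33.6 CPM in hTDP-43 A315T and 10.4, 15.3, 9.95 and 17.2 CPM in hTDP-43 WT, a log2 change of 1.34 (edgeR adjusted p = 0.00013). Cacnb1, a calcium channel beta subunit, had 164, 86.1, 80 and 102 CPM in hTDP-43 A315T and 42.9, 33.4, 31.7 and 49.2 CPM in hTDP-43 WT, a log2 change of 1.46 (edgeR adjusted p = 0.00149). Armcx6 had 16.5, 12.1, 12.5 and 14.5 CPM in hTDP-43 A315T and 4.18, 4.70, 1.97 and 8.25 CPM in hTDP-43 WT, a log2 change of 1.53 (edgeR adjusted p = 0.000472). The calls of these 4 held without each library in turn, and Tns1, Parvb and Cacnb1 were also called in the 8 libraries alone. Lhx4, a homeobox factor of motor neurons, had 54.3, 42.0, 37.4 and 42.2 CPM in hTDP-43 A315T and 27.5, 20.6, 10.3 and 26.0 CPM in hTDP-43 WT, a log2 change of 1.06 (edgeR adjusted p = 0.00357), and was under 2-fold without hTDP-43 WT replicate 3 (0.83), without hTDP-43 A315T replicate 1 (0.94) and with replicate 5 in the fit (0.85).

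**Figure D5:**
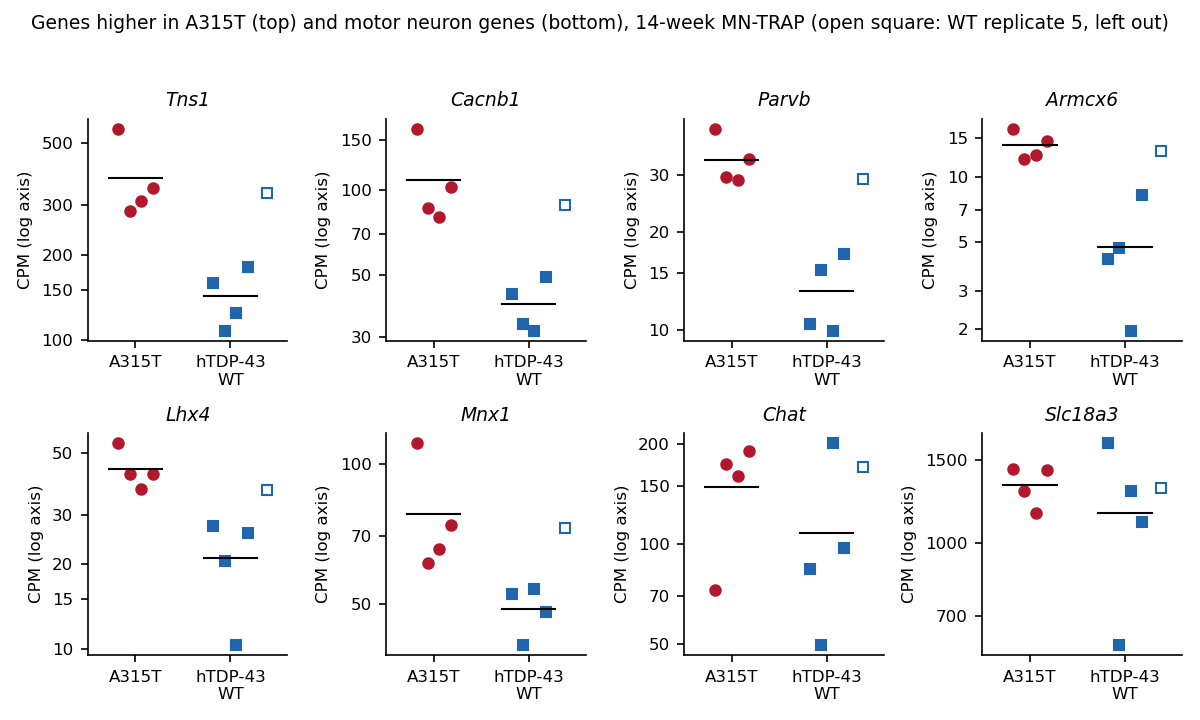
CPM (log axis) of 4 genes higher in hTDP-43 A315T (top) and 4 motor neuron genes (bottom) in the 4 hTDP-43 A315T libraries (red circles) and the 4 hTDP-43 WT libraries (blue squares), with lines at the group means and an open square for hTDP-43 WT replicate 5. Tns1, Cacnb1, Parvb, Armcx6, Lhx4 and Mnx1 do not overlap, and Chat and Slc18a3 do.

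Some genes that the study names in its sequencing results were expressed at about 1 CPM. Nhlh1, a neuronal helix-loop-helix factor, had 0.642, 1.86, 0.696 and 1.10 CPM in hTDP-43 A315T, against 0.192, 0, 0.207 and 0.111 CPM in hTDP-43 WT, a log2 change of 3.09 (edgeR adjusted p = 0.00108). Mxd3 had 0.963, 2.60, 1.04 and 1.15 CPM in hTDP-43 A315T and 0.480, 0.119, 0.104 and 0.279 CPM in hTDP-43 WT, a log2 change of 2.46 (edgeR adjusted p = 0.0224) whose call ended when hTDP-43 A315T replicate 2 was removed (adjusted p = 0.0773), and likewise for hTDP-43 WT replicates 2 (0.0683) and 3 (0.0684). Tex26 had 0.788, 1.81, 0.522 and 1.10 CPM in hTDP-43 A315T and 0.0960, 0.654, 0 and 0.279 CPM in hTDP-43 WT, overlapping, and its call (log2 change 1.97, edgeR adjusted p = 0.047) ended without 6 of the 8 libraries. Syngr4, a synaptic vesicle protein family member, had 0.525, 0.836, 0.261 and 0.940 CPM in hTDP-43 A315T and 0, 0, 0.415 and 0.111 CPM in hTDP-43 WT, overlapping, a log2 change of 2.58 ± 0.98 (SE) that was not called (edgeR adjusted p = 0.0664). The study called Syngr4 higher with its own fit. It also reported a rise by quantitative PCR over Chat bacTRAP mice, and more SYNGR4 protein in motor neurons by immunostaining. Tia1, a stress granule protein, had 8.20, 7.16, 8.09 and 6.11 CPM in hTDP-43 A315T and 20.1, 39.5, 8.50 and 20.6 CPM in hTDP-43 WT, a log2 change of -1.59 (edgeR adjusted p = 0.0187), a call that ended without hTDP-43 WT replicate 2 (adjusted p = 0.117) and without hTDP-43 A315T replicate 4 (adjusted p = 0.0553). The adjusted p with replicate 5 in the fit was 0.0501 for Nhlh1, 0.048 for Mxd3, 0.1 for Tex26 and 0.0504 for Tia1 by edgeR. The study's quantitative PCR in another MN-TRAP cohort found Tex26 higher and Tia1 unchanged against Chat bacTRAP mice. The study called Tia1 a possible false positive. It reported that the assay was not sensitive enough for Nhlh1 and Mxd3. Mouse Tardbp had 94.6, 109, 115 and 114 CPM in hTDP-43 A315T and 98.1, 112, 110 and 104 CPM in hTDP-43 WT (log2 change 0.02, edgeR adjusted p = 0.951), and counts on the mouse gene need not measure the human transgene.

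Several of the largest falls rested on hTDP-43 WT replicate 3. Nmbr, a bombesin-family receptor, had 0.379, 0.372, 0.783 and 1.20 CPM in hTDP-43 A315T and 2.35, 2.44, 105 and 1.28 CPM in hTDP-43 WT, and its log2 change of -5.36 (edgeR adjusted p = 0.000177) became -1.59 (adjusted p = 0.113) without that library. Cox6a2, a muscle-type subunit of complex IV, had 0.613, 0.0465, 0 and 0 CPM in hTDP-43 A315T and 3.31, 1.31, 53 and 2.56 CPM in hTDP-43 WT, with an adjusted p of 0.0177 by edgeR, and 0.174 without that library. Its call also ended without hTDP-43 A315T replicate 4. Of the 20 skeletal muscle genes 3 were called lower, at a median log2 change of -3.29, and 12 did not overlap, beside 7.79% of all genes called lower and 6.31% with all hTDP-43 A315T libraries below, while their median in whole cord was -2.85. None of the 20 was called with replicate 5 in the fit. Plin3, a lipid droplet coat protein, had 5.34, 7.53, 4.87 and 6.94 CPM in hTDP-43 A315T and 19.0, 32.6, 143 and 27.1 CPM in hTDP-43 WT, a log2 change of -3.15 (edgeR adjusted p = 3.36e-05), and its call held without each library and without hTDP-43 WT replicates 2 and 3 together (adjusted p = 0.0111).

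In lists of stress, ALS, synaptic and housekeeping genes the counts stand beside 7.79% of all genes lower and 1.7% higher. TDP-43 targets and cofactors had 5 of 33 lower, among them Cnp and Tia1, at a median log2 change of 0.02. That count was 2 with replicate 5 in the fit, 2 without hTDP-43 A315T replicate 4 and 1 in the 8 libraries alone. Familial ALS genes had 1 of 31 higher, heat shock proteins 0 of 26, integrated and ER stress response genes 1 of 30 lower, axon injury genes 1 of 25 in each direction and cytosolic ribosomal proteins 1 of 48 higher. The stress response gene was Creld2, whose log2 change of -1.19 turned to 0.14 without hTDP-43 WT replicate 3 and was not called with replicate 5 in the fit (edgeR adjusted p = 0.0898). Of 31 synaptic vesicle genes 3 were lower, of which Sypl had 30.0, 57.1, 56.5 and 49.1 CPM in hTDP-43 A315T and 86.3, 224, 303 and 123 CPM in hTDP-43 WT, a log2 change of -1.93 (edgeR adjusted p = 0.000221).

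In whole spinal cord 5 of 18791 genes (0.0266%) were called between hTDP-43 A315T and hTDP-43 WT at 14 weeks, all higher. A test of the difference between fractions called 255 genes (1.36%), of which 240 were lower (1.28%) and 15 higher (0.0798%) in MN-TRAP relative to cord. It called 4 with replicate 5 in the fit and 44 with a replicate block, of which 43 were lower and 1 higher. At 9 weeks 432 genes were lower (2.3%) and 20 higher (0.106%) in MN-TRAP, 2.41% in either direction, among them 8 of the 28 oligodendrocyte genes. Of the 3 hTDP-43 WT libraries there, replicate 3 had the Lamr1-ps1 reads given above and replicate 1 held 0.472 M counts. Without the 2 control libraries of 9 weeks with Lamr1-ps1 reads 1274 genes were lower and 1664 higher, among them 22 of the 28 oligodendrocyte genes lower, a setting chosen after seeing the data. The 2 ages were not compared by a test.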

How the data were processed

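The authors aligned reads to GRCm38 with STAR, counted them per gene with featureCounts and tested with DESeq2, with no strand setting given in the sources used here. The deposited values used are raw counts, whole numbers of reads per Ensembl gene. The deposited normalized counts were not used. A script matched 42548 of 43629 gene IDs to symbols.

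Counts were filtered with filterByExpr, scaled by TMM and fitted with edgeR 4.0.16 in R 4.3.3 (glmQLFit, glmQLFTest) to 55 libraries in 12 groups, without the left-out library. Calls needed a Benjamini-Hochberg adjusted p below 0.05 and a 2-fold change. Alternatives were DESeq2 1.42.0, limma-voom (limma 3.58.1), other libraries in the fit, other scaling, no filter, a replicate block and omission of each library. The fit was run on simulated counts drawn with its own estimates of spread, with no outlying library added. It recovered 97 of 100 genes changed by a log2 of 3 and 81 of 100 changed by 1.5, with 4 false calls. Such counts cannot show how the fit does where a library is unlike its group.

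The members of the comparison and the gene lists were chosen with earlier results of these data known. Named genes are those the study names, the 12 largest rises and falls with at least 5 CPM and no overlap, the 4 members per list, or fewer, that ranked first by p, and the 12 that did so in MN-TRAP alone. Olig2, Aqp4, Slc1a2, Slc18a3 and Nefl were chosen after their values were seen. An item is not reported here.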

Additional observations from a re-analysis of the deposited data

Results flagged for a closer look

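Of 166 groups of values tested for a sample far from the others, 11 had one, and chance gives about 1 in 20. In hTDP-43 A315T these were Mxd3 in replicate 2 (2.6 CPM), Cox6a2 in replicate 1 (0.613 CPM) and Zfp280c in replicate 3 (6.18 CPM). In hTDP-43 WT replicate 2 they were the mitochondrially encoded share (5.58%), mt-Nd6 (2280 CPM), and the mean log2 CPM of the excitatory interneuron and dorsal horn list (3.9) and of the pericyte and smooth muscle list (1.85). In hTDP-43 WT replicate 3 they were Nmbr (105 CPM), Cox8b (45.2 CPM), Susd5 (81.9 CPM) and the mean log2 CPM of the familial ALS list (6.72).

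The change in hTDP-43 A315T differed between MN-TRAP and whole cord for 29 named genes by the interaction term of the edgeR fit, and 14 of these were named for the study, for their size of change or for their rank in MN-TRAP alone. The differences in log2 change were higher in MN-TRAP for Nhlh1 (3.15) and Tns1 (1.24). They were lower for Cnp (-1.73), Nmbr (-4.91), Slc13a3 (-4.09), Zfp280c (-2.64), Sos2 (-2.13), Plin3 (-3.15), Ccdc13 (-3.82), Ndp (-3.33), Susd5 (-3.63), Ado (-1.59), Snap23 (-3.10) and Zfp979 (-3.24). With replicate 5 in the fit 4 genes in all passed this test and 0 of the 29, and with a replicate block 13 of the 29 did.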

How the results depend on the processing

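The 1783 calls (320 higher, 1463 lower) depended most on the libraries fitted. They were 1009 (130 and 879) with replicate 5, 0 (0 and 0) in MN-TRAP alone and in MN-TRAP of 14 weeks alone, 100 (5 and 95) in the 8 libraries alone, 525 (28 and 497) with limma-voom and 234 (15 and 219) without hTDP-43 WT replicates 2 and 3 together. Leaving out 1 library gave 1133 to 2230 calls, 145 to 567 higher and 988 to 1663 lower. The 255 genes that differed between fractions were 4 with replicate 5, 502 with DESeq2, 15 without replicates 2 and 3 together and 55 to 618 without 1 library. The causes were not tested.

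The labels do not say whether replicate numbers pair the samples, and these values do not settle it. Deviations of same-numbered libraries correlated at 0.0799, 0.0937, -0.0261 and 0.111, and those of differently numbered libraries at -0.12 to 0.0513. The replicate block gave 1517 calls, 44 between fractions, and in the 8 libraries alone 120 (6 and 114).

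Some log2 changes turned sign. With replicate 5 in the fit, Tardbp was -0.0319. Without replicates 2 and 3 together, Creld2 was 0.212, Pdia6 0.305, Bcl2l11 0.398, Polr1e 0.114, Eng 0.313, Tek 2.54, Serpinf1 0.802, Cfap54 0.914, Spag16 0.431, Ptprc 0.487 and Slc18a3 -0.0415. With limma-voom, Pdia6 was 0.0381, Polr1e 0.152, Sox17 -1.23, Kdr 0.647, Serpinf1 0.546, Cfap54 0.274 and S100a8 -0.481. With the replicate block in the 8 libraries alone, Serpinf1 was 0.0165. Leaving out 1 library gave ranges across 0 for Tardbp (-0.012 to 0.0868), Prnp (-0.0138 to 0.404), Nefl (-0.00486 to 0.548), S100a8 (-0.744 to 1.53), Sox17 (-0.995 to 1.89), Slc18a3 (-0.0148 to 0.408), Atp13a5 (-2.5 to 0.281), Spag16 (-7.52 to 0.148), Creld2 (-1.48 to 0.143), Pdia6 (-1.13 to 0.265), Hspe1 (-1.02 to 0.0479), Polr1e (-1.62 to 0.349), Eng (-2.13 to 0.0338), Serpinf1 (-1.55 to 0.842) and Cfap54 (-6.09 to 0.396).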
